A study of Populus ussuriensis with 2 samples.

Results

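MYB002, MYB003, MYB020 and MYB021 are poplar genes for R2R3 MYB transcription factors, the homologs of MYB46 and MYB83 of Arabidopsis. They were found in the deposited tables by their locus IDs, Potri.001G258700, Potri.001G267300, Potri.009G061500 and Potri.009G053900 in that order, and make up 4 of the 36385 listed loci. The tables pair no names with IDs, so the names rest on the IDs alone, and genome coordinates were not used here. All 4 loci were listed, with 5 transcripts of the 65535 in the tables. Whether that list holds every transcript of the genome was not tested. Shares and medians of all loci below are therefore those of the listed loci.

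RNA was sequenced from the lowest 0.5 cm of stem cuttings of Populus ussuriensis, in 2 libraries, replicate 1 and replicate 2. Both are labelled as day 14 after cutting. The plants were grown in vitro on half-strength Murashige and Skoog medium with 20 g/L sucrose at 25 °C, with 16 h of light and 8 h of dark, and were cut as seedlings aged 2 weeks. No genotype, added hormone or second condition is given for either library, so they form 1 group (n = 2) and no treatment was compared. The labels do not say whether the libraries came from separate cuttings, so the spread between them may be technical. The series is described as following adventitious roots, roots that form on a cut stem, through time, and no other time was analysed here.

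Wood cells, vessels and fibres thicken their walls with cellulose, xylan and lignin once they stop growing. In Arabidopsis, NAC transcription factors start this program and switch on MYB46 and MYB83 directly, and these MYB proteins in turn bind the promoters of genes that make the wall polymers. MYB46 and MYB83 can replace each other in Arabidopsis. Poplar has more copies, which are usually grouped as the pairs MYB002 with MYB021 and MYB003 with MYB020, and these are known from developing wood. Stem tissue at the base of a cutting is a mixture of pith, xylem, cambium, phloem and bark, so a level here is an average over all of them. In such a mixture fewer cells of a type and less RNA per cell cannot be told apart.

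The 4 switches were all listed above 0 in both libraries, at low to moderate levels. Levels are in FPKM, which divides the sequenced fragments of a transcript by its length in kilobases and by the library's mapped fragments in units of 1000000, and so lets loci of different length be compared. Summed over the 4 loci, replicate 2 had 9.12 FPKM and replicate 1 had 15.1 FPKM, a mean of 12.1 ± 4.2 FPKM (SD, n = 2). A locus was called detected at 1 FPKM or more in both libraries. By that rule 3 of the 4 were detected, and 56.5% of all listed loci were.

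MYB021 (Potri.009G053900) had the highest level of the 4. Its only listed transcript, Potri.009G053900.1, measured 4.65 FPKM in replicate 2, against 7.90 FPKM in replicate 1, with a mean of 6.28 ± 2.30 FPKM (SD, n = 2). Both values lie above those of the other 3 loci in either library. MYB021 alone held 51.0% of the summed level of the 4 loci in replicate 2 and 52.2% in replicate 1.

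MYB002 (Potri.001G258700), the other copy of that pair, was the one member with more than 1 listed transcript. Potri.001G258700.1 measured 1.15 FPKM in replicate 2, against 2.70 FPKM in replicate 1, which gave a mean of 1.93 ± 1.09 FPKM (SD, n = 2). Potri.001G258700.2 was listed at 0 in both libraries, so the first transcript held 100% of the locus in each. How the program divided reads among transcripts is not given in the sources used here, so a listed 0 does not show that the second transcript is absent.

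MYB003 (Potri.001G267300) was second among the 4 loci by its mean. Its transcript Potri.001G267300.1 measured 2.56 FPKM in replicate 2, against 3.92 FPKM in replicate 1, with a mean of 3.24 ± 0.96 FPKM (SD, n = 2). It held 28.1% of the summed level of the 4 loci in replicate 2 and 25.9% in replicate 1.

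MYB020 (Potri.009G061500), the other copy of the MYB003 pair, was the lowest and the one member under the detection minimum. Its transcript Potri.009G061500.1 measured 0.754 FPKM in replicate 2, against 0.603 FPKM in replicate 1, with a mean of 0.678 ± 0.107 FPKM (SD, n = 2). Neither library reached 1 FPKM, and both stayed above 0. Its part of the summed level was 8.27% in replicate 2 and 3.99% in replicate 1.

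**Figure D1:**
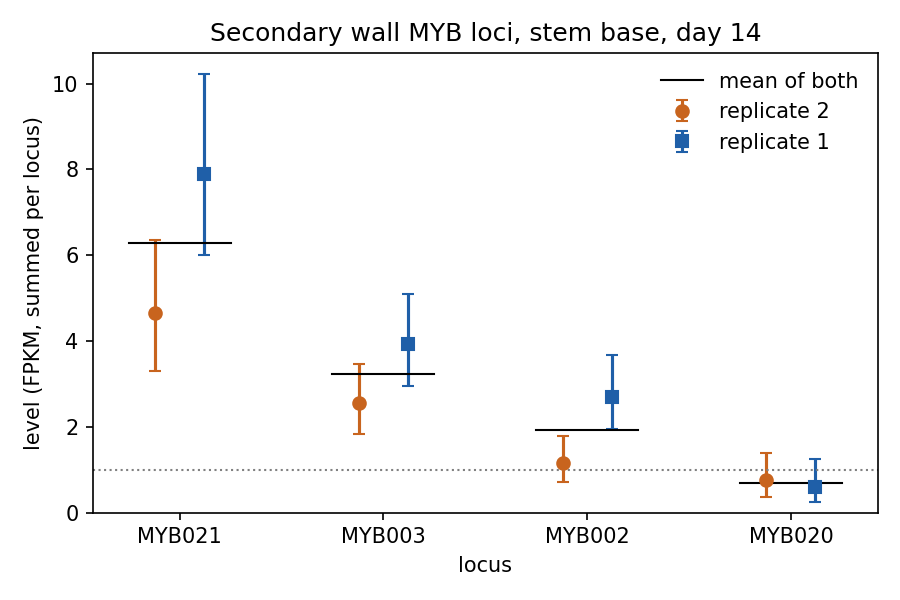
Level of each MYB locus in FPKM, summed over its listed transcripts, for replicate 2 (circles) and replicate 1 (squares). Bars are exact 95% Poisson intervals on the lowest whole reads behind each value and cover counting error only, horizontal lines are the mean of both libraries, and the dotted line marks 1 FPKM. MYB021 lies highest at 4.65 and 7.90 FPKM, and MYB020 is the one locus with both points below the dotted line. The MYB020 bars cross that line, from 0.362 to 1.39 FPKM in replicate 2 and from 0.242 to 1.24 FPKM in replicate 1. The MYB002 bar of replicate 2 also crosses it, from 0.705 to 1.78 FPKM.

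The order of the 4 levels was the same in both libraries, MYB021 above MYB003, MYB003 above MYB002 and MYB002 above MYB020. Of the 3 neighbouring steps in this order, 2 showed no overlap between the library values of the neighbours, counting error aside. The lower MYB021 value, 4.65 FPKM, lay above the higher MYB003 value, 3.92 FPKM. The lower MYB002 value, 1.15 FPKM, likewise lay above the higher MYB020 value, 0.754 FPKM. MYB003 and MYB002 overlapped, since the lower MYB003 value was 2.56 FPKM and the higher MYB002 value was 2.70 FPKM.

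The reads behind these values could be read back in part. Where a transcript's FPKM rests on undivided reads, its values in the 2 libraries stand to each other as 2 whole read numbers do, once the depth of each library is allowed for. All 4 transcripts above 0 met this within a relative tolerance of 1e-08. The lowest whole reads were 39 in replicate 2 and 58 in replicate 1 for MYB021, and 20 in replicate 2 and 41 in replicate 1 for MYB002. For MYB003 they were 41 in replicate 2 and 55 in replicate 1, and for MYB020 they were 10 in replicate 2 and 7 in replicate 1. The implied depth was 12.51 times 1000000 reads in replicate 2 and 10.96 times 1000000 in replicate 1. At that depth the matching transcript lengths are 670 for MYB021, 1385 for MYB002, 1281 for MYB003 and 1060 for MYB020. Where reads and length share a factor, both are larger by that factor, so the reads are lower bounds and the intervals on them are at their widest. Whether any of the 4 loci carries such a factor was not tested.

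Within each pair, 1 copy carried most of the level. MYB021 was 4.03 times as high as MYB002 in replicate 2 and 2.92 times in replicate 1, so it held 80.1% and 74.5% of the level of the pair. The exact 95% binomial interval of this ratio, from the lowest whole reads, was 2.29 to 7.29 in replicate 2 and 1.93 to 4.47 in replicate 1. On the log2 scale the ratio of MYB021 to MYB002 was 1.78 ± 0.33 (SD, n = 2).

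In the other pair MYB020 was the lower copy. MYB020 was 0.295 times as high as MYB003 in replicate 2, with an exact 95% binomial interval of 0.132 to 0.598, and 0.154 times in replicate 1, with an interval of 0.0591 to 0.339. MYB020 thus held 22.8% of the level of its pair in replicate 2 and 13.3% in replicate 1. The log2 ratio of MYB020 to MYB003 was -2.23 ± 0.66 (SD, n = 2). These ratios need no scaling between libraries, since both copies were measured in the same one. Copies of a pair can share reads where their sequences are near identical. How the program assigned such reads is not given in the sources used here, so the division within a pair is uncertain to that extent.

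As a pair, MYB021 and MYB002 summed to 5.81 FPKM in replicate 2, against 10.6 FPKM in replicate 1. MYB020 and MYB003 summed to 3.31 FPKM in replicate 2, against 4.52 FPKM in replicate 1. The MYB021 and MYB002 pair held 63.7% of the summed level of the 4 loci in replicate 2 and 70.1% in replicate 1.

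All 4 switches lay below the median level of the detected loci. In replicate 2, 42.8% of the listed loci were higher than MYB021, and in replicate 1, 34.1% were. For MYB003 the share of loci that were higher was 50.3% in replicate 2 and 45.4% in replicate 1, which places it near the middle of the list. MYB002 had 57.1% of loci above it in replicate 2 and 49.6% in replicate 1, and MYB020 had 60.01% and 61.8%. Against the 20562 detected loci alone, whose median level was 10.7 FPKM, the members stood lower: 67.7% of these loci had a higher mean than MYB021, 84.6% than MYB003 and 93.8% than MYB002.

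**Figure D2:**
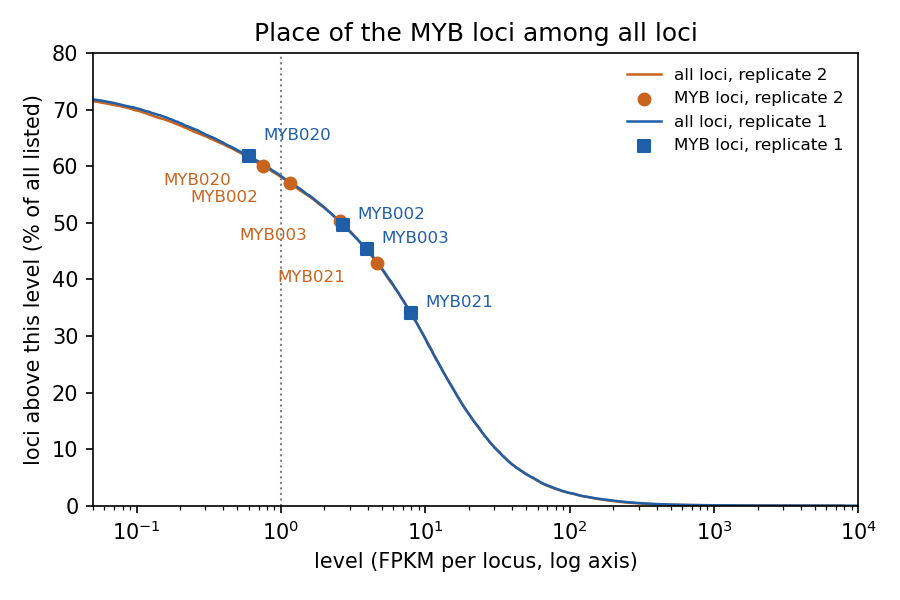
Share of all listed loci above a given level (percent, vertical axis) against level in FPKM per locus (log axis, shown from 0.05 FPKM), with the MYB loci marked on each curve; circles are replicate 2 and squares replicate 1. The curves of the 2 libraries nearly coincide, and the MYB loci sit between 34.1% and 61.8% of the way down the list, on the steep part of the curve or to its left.

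Of the 3 members that reached a mean of 1 FPKM, 3 were lower in replicate 2, by different amounts. The level ratio of replicate 2 to replicate 1 was 0.427 for MYB002, 0.589 for MYB021 and 0.653 for MYB003. Their log2 ratios were -1.23, -0.76 and -0.62 in that order, while the median log2 ratio of all detected loci was -0.02. Among all loci that reached this mean, 53.5% were lower in replicate 2 by any amount. MYB020 went the other way, with a ratio of 1.25 and a log2 ratio of 0.32.

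Loci at least 2-fold different between the libraries, at a mean of 1 FPKM or more, were called apart; no test was possible with 1 library on each side. MYB002 was called apart, 1 of the 3 members that could be, and 5.03% of all 21247 loci at that mean were, with 2.03% of the 21247 lower in replicate 2 as MYB002 was. Low loci are apart more often, and MYB002 is a low locus: among the 5914 loci with a mean from 1 to under 5 FPKM, 10.9% were apart, 5.46% lower in replicate 2. The exact 95% binomial interval of the MYB002 ratio was 0.237 to 0.746, from the lowest whole reads. It was 0.382 to 0.899 for MYB021, 0.425 to 0.996 for MYB003 and 0.430 to 3.87 for MYB020. As deposited, the intervals of MYB002, MYB021 and MYB003 end below 1 and that of MYB020 spans it. The MYB003 interval spans 1 as well once the libraries are scaled, with an upper end of 1.01 by the median of ratios and 1.03 by the listed sum. Reads are not independent molecules after amplification, and these intervals and those above cover counting error only, without the spread between cuttings.

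**Figure D3:**
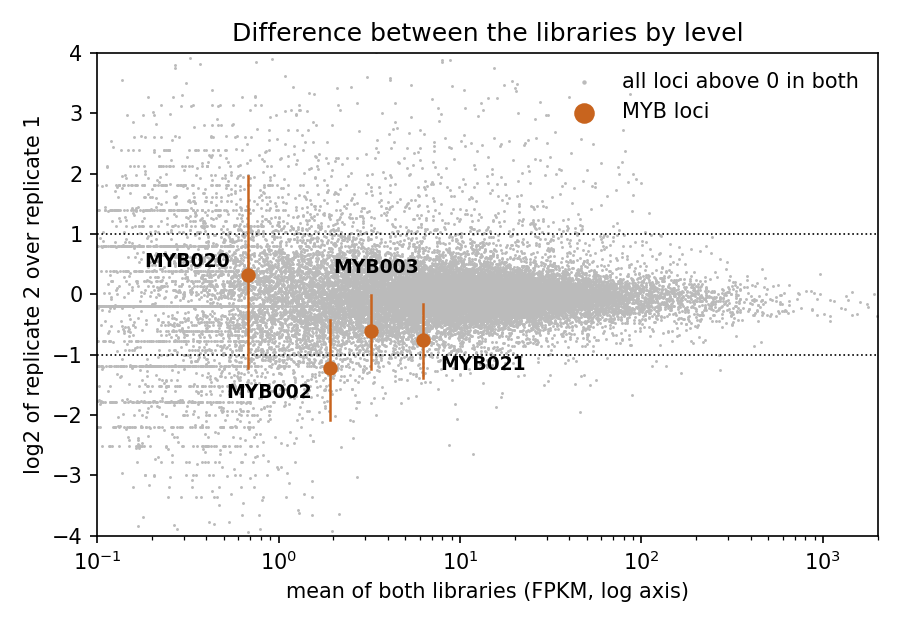
Log2 of replicate 2 over replicate 1 (vertical axis) against the mean of both libraries in FPKM (log axis) for loci above 0 in both libraries (grey; loci beyond the axes are not drawn) and for the MYB loci (orange). Vertical lines are exact 95% binomial intervals on the lowest whole reads and dotted lines mark a 2-fold difference; MYB002, at -1.23, is the one MYB locus beyond it.

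Other genes of the secondary wall program were looked up by poplar locus IDs recalled from general knowledge. No annotation was used to check which gene an ID stands for, so these lists are given by counts and medians, without naming a locus. Of 10 loci listed as NAC switches, which act above the MYB switches, 7 were detected, where 56.5% of all listed loci were. None of the 8 with a mean of 1 FPKM or more was called apart, where 5.03% of all such loci were; both counts are near these shares. The median level of the NAC list was 3.33 FPKM in replicate 2, against 3.03 FPKM in replicate 1. The 4 MYB switches had a median of 1.86 FPKM in replicate 2, against 3.31 FPKM in replicate 1. All 36385 listed loci together had a median of 2.61 FPKM in each library.

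Of 6 loci listed as MYB genes that act later in the program, 5 were detected, where 56.5% of all listed loci were. Their median was 4.47 FPKM in replicate 2, against 6.77 FPKM in replicate 1. Of these 6, 3 had a mean above that of MYB021, where 13931 of all 36385 listed loci did. Of the 5 loci listed for xylan synthesis, 5 were detected, with a median of 31.8 FPKM in replicate 2, against 50.0 FPKM in replicate 1. The 4 loci listed as secondary wall cellulose synthases were also all detected. These loci were chosen as markers of xylem that is building walls, but whether their RNA came from xylem alone was not tested. Their median was 92.0 FPKM in replicate 2, against 102.9 FPKM in replicate 1, and their means ran from 38.2 to 179.4 FPKM. Markers of green tissue and of phloem were not looked up here. The 18 loci listed as lignin enzymes were all detected, with a median of 149.1 FPKM in replicate 2, against 149.0 FPKM in replicate 1. Of the 43 loci on all of these lists, 33 were above MYB021 by their mean, where 13931 of all 36385 listed loci were. None of the 40 that reached a mean of 1 FPKM was called apart, where 5.03% of all loci at that mean were.

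Most loci of these lists were lower in replicate 2, and 53.5% of all loci with a mean of 1 FPKM or more were. Counting loci with a mean of 1 FPKM or more, 5 of 5 later MYB loci and 5 of 5 xylan loci were lower in replicate 2, with median log2 ratios of -0.58 and -0.57. For the cellulose synthase list it was 4 of 4 with a median of -0.11, for the lignin list 14 of 18 with a median of -0.12, and for the NAC list 5 of 8 with a median of -0.13. The 3 MYB switches over that minimum had a median of -0.76. All of these values come from the same 2 libraries and no test was made of them.

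The loci next to the members in the order of the IDs had levels of their own. MYB020 stood between Potri.009G061400, at 0.218 FPKM in replicate 2, against 0.249 FPKM in replicate 1, and Potri.009G061600, at 100.7 FPKM and 110.3 FPKM. MYB021 stood between Potri.009G053800, at 22.8 FPKM in replicate 2, against 22.2 FPKM in replicate 1, and Potri.009G054000, at 24.4 FPKM and 19.0 FPKM. Both neighbours of MYB021 were thus higher than MYB021 itself in both libraries. MYB003 stood between Potri.001G267200, at 3.29 FPKM in replicate 2, against 5.03 FPKM in replicate 1, and Potri.001G267400, at 12.4 FPKM and 10.4 FPKM. MYB002 stood between Potri.001G258600, at 6.48 FPKM in replicate 2, against 4.27 FPKM in replicate 1, and Potri.001G258800, which was listed at 0 in both.

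Likeness to other loci was measured as the distance of log2(FPKM + 1) over the 2 libraries, which can show only a similar level and a similar difference between them. Nearest to MYB021 were Potri.010G066600, Potri.007G033400 and Potri.001G239200, at distances from 0.044 to 0.050, and 17 loci lay within 0.1. Nearest to MYB002 were Potri.013G081100, Potri.013G023000 and Potri.013G134200, from 0.037 to 0.043, with 21 loci within 0.1. For MYB003 they were Potri.008G081700, Potri.005G081000 and Potri.005G039900, from 0.020 to 0.023, with 51 within 0.1. For MYB020 they were Potri.001G346400, Potri.015G101000 and Potri.009G143500, from 0.0097 to 0.019, with 121 within 0.1. None of the 4 members was among the nearest 3 of another.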

How the data were processed

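The authors deposited 1 table per library, with 1 FPKM value per transcript ID, per the file headers. Of tools, HISAT2 2.1.0 and Bowtie2 2.2.3 appear in the submitters' processing notes, where neither is given a role. Genome build, annotation, filters and the program behind the FPKM values: not given in the sources used here. Whether the IDs are gene models of P. ussuriensis itself is therefore unknown.

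Values per locus are sums over the listed transcripts, computed with Python 3.11.15, pandas 2.3.3 and SciPy 1.17.1. Nothing was rescaled in the values reported, apart from the scaled ends of the MYB003 interval and the alternatives tried. The members, lists and rules were chosen with earlier results of these data known. All 4 members were named, with the 3 nearest loci by distance and the loci on either side in the ID order.

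Of the 23353 loci with 1 listed transcript, 12813 were above 0 in both libraries, and the FPKM ratios gave whole reads for 83.8% of these, with 1 read worth 0.876 times as much FPKM in replicate 2 as in replicate 1. Products of reads up to 10000 were found for 6803 loci, and for 1 locus when the constant was shifted by a factor of 1.011. The total was then set so that lengths are whole, which held within 0.01 for 67.2% of 2000 loci. The recovered reads served for the intervals, and were reported with the implied depth and lengths. They entered no level or ratio. Other scalings, pseudocounts, minimums and folds were tried.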

Additional observations from a re-analysis of the deposited data

How the results depend on the processing

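No change of direction was seen, but it was looked for only in the library ratio of MYB002. The pseudocounts and scalings tried could not have reversed that ratio. Of 70 recomputed values, 61 stayed within the spread or range set for them. Several of these 61 could not have moved. Leaving out a replicate leaves the other library's value, which with n = 2 is always within 1 SD of the mean. Copy ratios cannot change when libraries are scaled. Using the leading transcript alone changes no member, since that transcript held the whole level of each locus. For the same reason the MYB002 transcript share could not move. The count of 61 is therefore not a measure of robustness. The 3 detected members became 0 at a minimum of 5 FPKM and 4 at a minimum of 0.1 FPKM. The share of all loci detected at these minimums is not given here. The 1 member apart became 0 with the ratio of FPKM + 1 and 3 at 1.5-fold, where 13.7% of all loci were apart. All loci apart, 1069, became 584 with the ratio of FPKM + 1, 2917 at 1.5-fold, 4589 with no minimum level and 424 with a mean of at least 5 FPKM. With FPKM + 1 the log2 ratio of MYB021 to MYB002 was 1.33 against 1.78, and that of MYB020 to MYB003 was -1.32 against -2.23, since adding 1 pulls low values together. No paired analysis was possible because both libraries belong to a single group. Depth limits the precision of all 4 members; MYB020 rested on at least 10 reads in replicate 2 and 7 in replicate 1.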
